A study of Mus musculus with 6 samples.

Results

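Of the 20656 genes that the array names through RefSeq accessions, 10 immediate early and cAMP-responsive genes are described here: Fos, Fosb, Jun, Junb, Egr1, Egr2, Arc, Nr4a1, Nr4a2 and Npas4. They were selected by name, with earlier results of these data known. All probes whose printed accession belongs to them were taken, which gave 11 of 39409 probes. Nr4a2 had 2 probes and each other gene had 1. All 11 probes were well above background on all 6 arrays, and none had a spot marked as an outlier.

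RNA was measured on 6 single-colour Agilent mouse arrays, with 1 array for each group and no replicates. The starting cells, mouse embryonic fibroblasts (MEF), grow out of dissociated embryos as a mixed mesenchymal culture and came from E13.5 ICR mice. The induced cells were such fibroblasts exposed to adenoviral supernatants on 2 successive days, which the labels call neurons induced by Tet3, at 1, 3, 5 and 7 dpi. Primary E13.5 neurons were the reference, with no brain region stated in the labels. By the protocol, part of the medium of the infected cultures was exchanged on days 3 and 5 after the second infection for neuronal medium that held 20 μM forskolin. Whether the cells of 3 and 5 dpi were taken before or after the switch of that day is not given, and only the array labelled 7 dpi lies after both. There was no culture with virus but without Tet3, and none with forskolin alone, so virus, Tet3, medium and time cannot be told apart.

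Immediate early genes are transcribed within minutes of a stimulus, without new protein synthesis, when kinases activate factors already sitting at their promoters. Serum and growth factors act largely through serum response factor (SRF) and its partners, and cyclic AMP acts through protein kinase A and the factor CREB. Forskolin activates adenylyl cyclase, the enzyme that makes cyclic AMP. In fibroblasts these genes are the classic response to serum, and in neurons they follow electrical activity and calcium entry. Their transcripts are short-lived, so an array gives their level at the moment of lysis.

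Levels are log2 signals with 0 set at the 75th percentile of the array, and differences are on the same log2 scale, where 1 is 2-fold. A level is compared only between arrays for the same probe, since probes differ in brightness. The scanner software's error model gave a median error of 0.20 for a difference between arrays. For Fos, which has 10 spots on each array, the SD over those spots was between 0.037 and 0.055. Both errors cover the array and not the spread between cultures, so each difference describes a pair of arrays, and the number of arrays limits its precision. In bulk RNA, fewer cells of a type and less RNA per cell cannot be told apart.

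There were 2 scans, one of MEF with 1 dpi and one of the other 4 arrays, so the step from 1 to 3 dpi and each comparison of a later array with MEF also crosses scans. Between 72.9% and 86.1% of probes were well above background. The brightest Tet3 probe was 2.56-fold, 3.89-fold and 6.94-fold of MEF at 1, 3 and 5 dpi but 1.23-fold on the array labelled 7 dpi, where Tet3 signal did not go with the label. Of its other 2 probes, one was well above background only at 1, 3 and 5 dpi, at levels of -2.00, -1.14 and 0.26, and one was at 0.73-fold, 1.24-fold, 1.28-fold and 1.33-fold of MEF in turn. All 12 fibroblast markers were well above background on all 6 arrays. All 15 neuron markers were so in neurons and on the arrays labelled 5 and 7 dpi, 14 at 1 and 3 dpi, and 12 in MEF. The neuron array held all 9 markers of astrocytes and radial glia, but each other array held 8 of them. The log2 of their levels summed on the linear scale was 7.09 in neurons and between 1.89 and 2.28 on the other arrays. The 14 macrophage markers were all above background in MEF, where the same measure was 8.17. It was 5.91, 5.16, 3.44 and 3.12 on the arrays labelled 1, 3, 5 and 7 dpi, and 4.51 in neurons. The brightest marker weighs most in such a sum. In neurons it was at 4.27, where the mean log2 level of the 14 was -2.10. Of all genes past 2-fold, the share that was higher depended on the scaling. It was 62.3%, 68.5%, 71.3% and 65.3% for 3 dpi, 5 dpi, the array labelled 7 dpi and neurons over MEF, against 42.7%, 45.8%, 48.4% and 46.1% after quantile normalization. For 3 dpi over 1 dpi it was 60.1% against 34.6%.

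Promoters from RefSeq (GRCm38.p6) were used for 8 of the 10 genes, as 250 bases before to 50 after each start site. Arc and Egr1 had none in the set used for these genes, from which a chromosome was left out by rule. No motif count therefore covers Arc or Egr1. They are shown for 5 genes: Nr4a1, Nr4a2 and Npas4, which were lower together from 5 dpi to the array labelled 7 dpi, and Fos and Jun, which differed less in that step. Fosb, Egr2 and Junb, which also hold the motif marked below, are not shown. They differed by 0.17, 0.02 and -0.69 in that step. Since the genes shown were picked by that step, their sequences do not tell whether the motif goes with it. Capitals mark the core motif of the cyclic AMP response element, TGACG, which reads CGTCA on the other strand; both strands were searched. The Fos promoter is chr12:85473640-85473939 on the plus strand, that of Nr4a1 is chr15:101266596-101266895 on the plus strand, that of Nr4a2 is chr2:57123954-57124253 on the minus strand, that of Npas4 is chr19:4989922-4990221 on the minus strand and that of Jun is chr4:95052173-95052472 on the minus strand.
Fos: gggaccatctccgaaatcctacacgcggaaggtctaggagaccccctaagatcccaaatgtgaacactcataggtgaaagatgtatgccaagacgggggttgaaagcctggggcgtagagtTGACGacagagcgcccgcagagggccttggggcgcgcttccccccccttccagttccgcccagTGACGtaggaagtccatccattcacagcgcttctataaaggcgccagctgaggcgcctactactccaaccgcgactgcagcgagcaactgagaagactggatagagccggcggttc
Nr4a1: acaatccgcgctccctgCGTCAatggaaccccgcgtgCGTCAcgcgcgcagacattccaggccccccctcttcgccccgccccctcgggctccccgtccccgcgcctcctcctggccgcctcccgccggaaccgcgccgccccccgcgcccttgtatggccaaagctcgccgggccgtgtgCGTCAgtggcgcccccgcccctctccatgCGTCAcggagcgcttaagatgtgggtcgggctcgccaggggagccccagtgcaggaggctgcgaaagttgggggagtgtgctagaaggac
Nr4a2: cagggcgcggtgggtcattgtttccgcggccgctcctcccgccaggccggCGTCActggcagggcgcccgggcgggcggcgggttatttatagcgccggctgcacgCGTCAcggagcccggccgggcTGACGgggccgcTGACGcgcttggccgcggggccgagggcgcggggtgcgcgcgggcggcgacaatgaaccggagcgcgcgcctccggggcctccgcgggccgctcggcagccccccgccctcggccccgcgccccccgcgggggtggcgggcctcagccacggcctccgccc
Npas4: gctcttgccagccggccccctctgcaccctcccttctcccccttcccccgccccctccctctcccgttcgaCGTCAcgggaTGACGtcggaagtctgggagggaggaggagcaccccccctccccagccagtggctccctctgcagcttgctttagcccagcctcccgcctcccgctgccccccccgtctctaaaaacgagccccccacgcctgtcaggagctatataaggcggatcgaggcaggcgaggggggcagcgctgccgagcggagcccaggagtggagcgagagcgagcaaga
Jun: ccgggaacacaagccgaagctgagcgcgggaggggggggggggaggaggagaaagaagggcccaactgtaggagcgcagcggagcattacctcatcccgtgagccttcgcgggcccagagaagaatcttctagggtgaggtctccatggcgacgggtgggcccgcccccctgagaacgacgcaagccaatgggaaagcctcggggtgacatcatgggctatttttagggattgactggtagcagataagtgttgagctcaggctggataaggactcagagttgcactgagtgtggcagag

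The core motif was found in 7 of these 8 genes, all but Jun, against 23.0% of all 27025 genes with a promoter in the table (genes with several start sites were counted once). The genes were chosen as immediate early and cAMP-responsive, so this count describes a picked set and tests nothing. Nr4a1 and Nr4a2 held 4 each, Fos and Npas4 held 2 each, and Fosb and Junb held 1 each. Egr2, with several start sites in the table, held 2 in each window that had the motif. In Fos they began at positions -129 and -66, counted back from the start site, and in Npas4 at -179 and -169, so that they lie near each other. The full palindrome TGACGTCA, which contains the core motif on both strands, was in 0 of the 8 genes and in 2.03% of all genes. The EGR site GCGGGGGCG was in Fosb and Nr4a1, 2 of 8 genes against 3.31%. The CArG box, to which SRF binds, was in Egr2 alone, 1 of 8 genes against 1.81%, and the AP-1 site TGANTCA was in 0 of 8 against 8.97%. The promoters of these genes had a median GC content of 62.7%, over 12 start sites, against 52.7% for all promoters. Several of the 12 are windows of Egr2, some of them overlapping, at 56.0% to 72.0%, so Egr2 weighs more in this median. The windows of the other genes had 58.7% to 81.7%. A motif holding CG is met more often in GC-rich sequence, and the part of GC content in the count was not tested. A match here is a run of letters and not a measured binding site, and sites farther out were not searched.

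The levels moved in 3 ways over the Tet3 arrays. Between MEF and 1 dpi, 8 of 10 genes were lower, and between 1 and 3 dpi all 10 were higher. Egr2 and Arc then returned part of the way at 5 dpi, while Nr4a1, Nr4a2 and Npas4 stayed at or above their 3 dpi level at 5 dpi and were lower on the array labelled 7 dpi. Fos remained below MEF at all 4 times, and its highest level was in neurons.

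**Figure D1:**
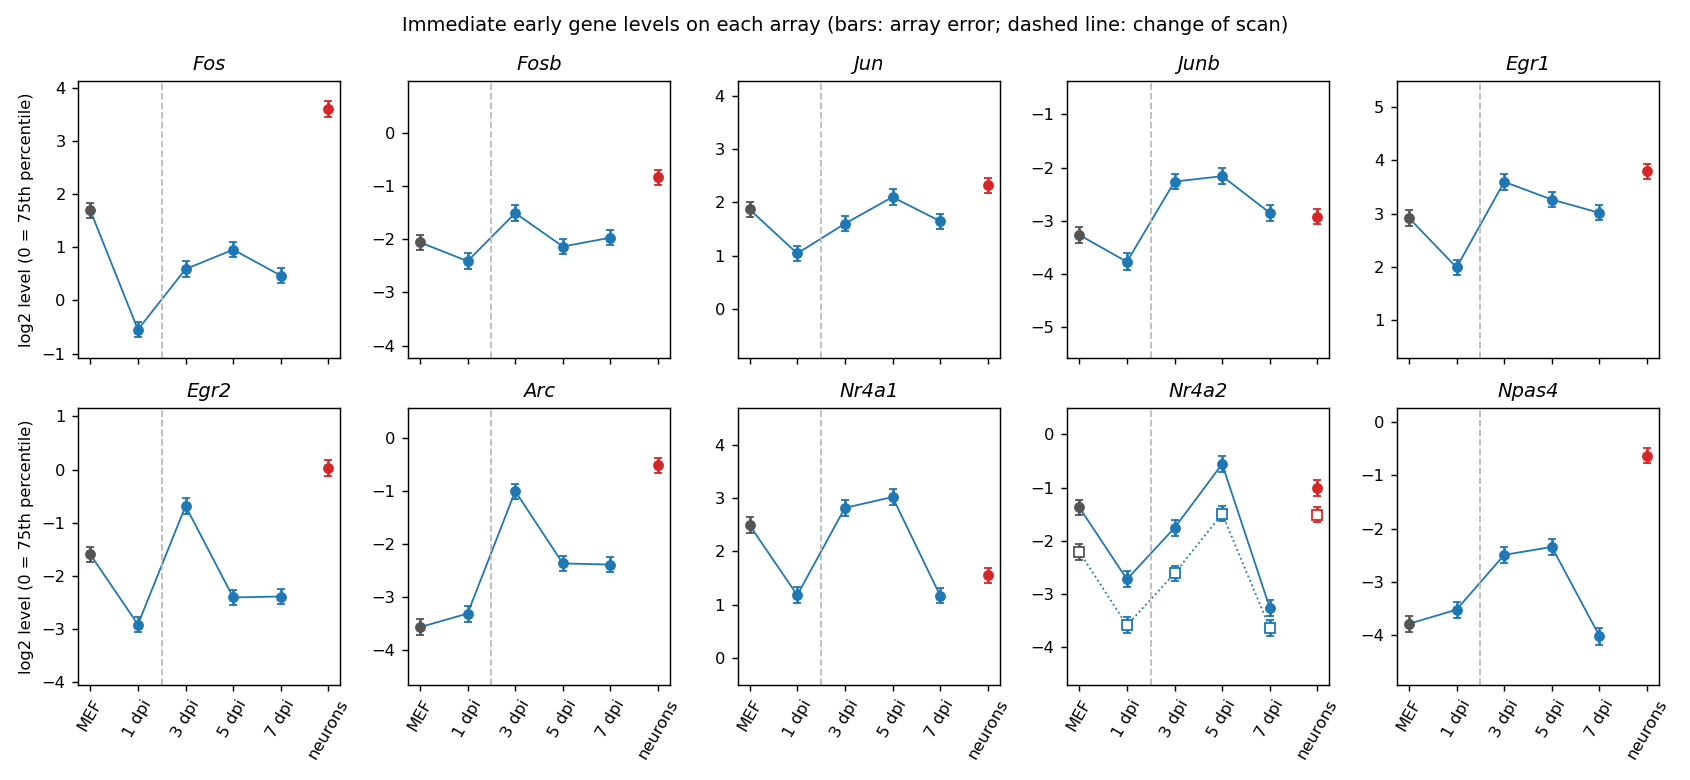
Log2 level (vertical axis, 0 at the 75th percentile of the array) of each gene on the 6 arrays, 1 array per point, with the scanner's error as bars; MEF in grey, Tet3 arrays in blue, neurons in red, and the dimmer of the 2 Nr4a2 probes as open squares. All panels span the same range of levels; each gene is higher at 3 dpi than at 1 dpi, and the levels of Fos, Fosb, Egr2, Arc and Npas4 in neurons exceed those in MEF by at least 2-fold.

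Fos encodes the partner that forms the AP-1 transcription factor with Jun proteins. Its level was 1.69 in MEF, -0.55, 0.59, 0.95 and 0.47 on the arrays labelled 1, 3, 5 and 7 dpi, and 3.60 in neurons. Fos was thus highest in neurons and lowest at 1 dpi, and MEF lay above all 4 Tet3 arrays. The difference of 1 dpi from MEF was -2.24, or 4.73-fold lower, and only 0.923% of all genes were lower than that. From 1 to 3 dpi Fos was 2.20-fold higher, and the levels on the arrays labelled 3, 5 and 7 dpi lay within 0.49 of one another. In neurons it was 3.74-fold of MEF, and the array labelled 7 dpi was 8.75-fold below neurons.

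Fosb, a second Fos family protein that also pairs with Jun, varied little among the fibroblast arrays. It was measured at -2.06 in MEF, -2.41, -1.51, -2.14 and -1.97 on the arrays labelled 1, 3, 5 and 7 dpi, and -0.84 in neurons. The levels in MEF and on the arrays labelled 5 and 7 dpi differed by less than the array error of 0.20. Only neurons were past 2-fold of MEF, at 2.33-fold, and this was under 2-fold after quantile normalization or median centring, with differences of 0.88 and 0.42. At 3 dpi Fosb was 1.87-fold of 1 dpi.

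Jun, the central DNA-binding partner in AP-1, had the narrowest range of the 10 genes. Its levels were 1.87 in MEF, 1.04, 1.60, 2.10 and 1.65 on the arrays labelled 1, 3, 5 and 7 dpi, and 2.32 in neurons. The order was neurons, 5 dpi, MEF, the array labelled 7 dpi, 3 dpi and 1 dpi, and the array labelled 7 dpi and 3 dpi differed by less than the array error. None of the 9 comparisons counted here took Jun past 2-fold, although its levels at 5 dpi and in neurons lay more than 2-fold above that at 1 dpi. Its largest difference from MEF, at 1 dpi, was 1.77-fold lower.

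Junb, which often opposes Jun within AP-1, had levels of -3.27 in MEF, -3.77, -2.27, -2.16 and -2.85 on the arrays labelled 1, 3, 5 and 7 dpi, and -2.92 in neurons. It was 2.84-fold higher at 3 dpi than at 1 dpi. At 3 and 5 dpi it stood above the other 4 arrays, at 2.00-fold and 2.15-fold of MEF. Both of these lay under 2-fold with normexp background correction, quantile normalization or median centring, where the differences were 0.83, 0.71 and 0.71 at 3 dpi and 0.96, 0.73 and 0.70 at 5 dpi. Junb was the only gene of the 10 whose level on the array labelled 7 dpi was not below that in neurons.

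Egr1, a zinc finger factor induced by serum and by synaptic activity, was measured at 2.92 in MEF, 1.99, 3.60, 3.26 and 3.01 on the arrays labelled 1, 3, 5 and 7 dpi, and 3.80 in neurons. Neurons and 3 dpi were the highest and differed by less than the array error. After quantile normalization they stood apart, at 1.41 and 0.66 over MEF. The level at 1 dpi was 1.91-fold below MEF, and that at 3 dpi was 3.05-fold above 1 dpi. After 3 dpi the level was closer to MEF at each later array, and on the array labelled 7 dpi it was within 0.10 of it. This order depended on the scaling. Median centring gave -0.058 at 5 dpi and -0.34 on the array labelled 7 dpi.

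Egr2, its relative that is also needed for myelination by Schwann cells, gave levels of -1.59 in MEF, -2.91, -0.68, -2.40 and -2.38 on the arrays labelled 1, 3, 5 and 7 dpi, and 0.03 in neurons. Its level at 3 dpi stood above MEF and above the other 3 Tet3 arrays. From 1 to 3 dpi it was 4.68-fold higher, and 99.6% of all genes differed by less or were lower in that step. From 3 to 5 dpi, within a scan, it was 3.29-fold lower, and only 1.48% of genes were lower than that. In neurons Egr2 was 3.08-fold of MEF, although median centring gave a difference of 0.82.

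Arc, a protein of dendrites that controls the removal of glutamate receptors from synapses, was at -3.56 in MEF, -3.31, -1.01, -2.37 and -2.39 on the arrays labelled 1, 3, 5 and 7 dpi, and -0.52 in neurons. It was not lower at 1 dpi than in MEF. At 3 dpi Arc was 4.92-fold of 1 dpi and 5.88-fold of MEF, the largest difference from MEF of any of the 10 genes on a Tet3 array. At 5 dpi it was 2.56-fold lower than at 3 dpi, and on the array labelled 7 dpi it had the same level as at 5 dpi within the array error. It remained 2.29-fold and 2.26-fold of MEF on those arrays, but both differences were under 2-fold with normexp (0.90 and 0.92), quantile normalization (0.78 and 0.70) or median centring (0.80 and 0.74). In neurons it was 8.25-fold of MEF.

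Nr4a1, an orphan nuclear receptor that is a well-known target of CREB, had levels of 2.49 in MEF, 1.18, 2.82, 3.02 and 1.17 on the arrays labelled 1, 3, 5 and 7 dpi, and 1.55 in neurons. The arrays fell into a high set, with MEF, 3 dpi and 5 dpi, and a low set with the other 3. It was 2.49-fold lower at 1 dpi than in MEF and 3.12-fold higher at 3 dpi than at 1 dpi. From 5 dpi to the array labelled 7 dpi it was 3.61-fold lower, and 1.06% of genes were lower than that. Nr4a1 was lower in neurons than in MEF, by a difference of -0.94, and was the only such gene of the 10 with this scaling. Junb was lower as well after quantile normalization, at -0.53, and Jun, Junb and Nr4a2 after median centring, at -0.35, -0.46 and -0.44.

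Nr4a2, or Nurr1, the relative of Nr4a1 needed for dopamine neurons, was followed by 2 probes. The brighter was at -1.37 in MEF, -2.72, -1.76, -0.56 and -3.26 on the arrays labelled 1, 3, 5 and 7 dpi, and -1.01 in neurons. The dimmer was at -2.21, -3.59, -2.62, -1.49, -3.64 and -1.51 on the same arrays. Both put 5 dpi highest and the array labelled 7 dpi lowest. On the brighter probe Nr4a2 was 2.30-fold higher at 5 dpi than at 3 dpi and then 6.52-fold lower on the array labelled 7 dpi, a difference below which lay 0.262% of all genes. The dimmer probe gave 2.18-fold and 4.44-fold for these steps.

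Npas4, a factor with expression largely limited to neurons and driven by calcium entry, was at -3.79 in MEF, -3.53, -2.50, -2.35 and -4.02 on the arrays labelled 1, 3, 5 and 7 dpi, and -0.63 in neurons. The levels at 3 and 5 dpi were alike within the array error and stood above the other 3 fibroblast arrays. It was 2.46-fold of MEF at 3 dpi and 2.72-fold at 5 dpi. The first of these lay just under 2-fold with normexp (0.95), quantile normalization (0.95) and median centring (0.999). On the array labelled 7 dpi Npas4 was 3.20-fold below 5 dpi and 10.5-fold below neurons, the largest gap to neurons among the 10 genes. In neurons it was 8.94-fold of MEF.

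Read by step, the count of genes past 2-fold was set beside the same count over all genes that could be compared. At 1 dpi over MEF, arrays of 1 scan, 4 of the 10 genes were at least 2-fold lower (Fos, Egr2, Nr4a1 and Nr4a2) and 0 were higher, where over all genes 5.97% were lower and 5.38% higher. In either size, 8 of 10 were lower against 43.4% of all genes, and the median of the 10 was -0.88 against 0.07. Macrophage markers were lower in the same step, 12 of 14 by at least 2-fold with a median of -2.04, and their part in the result was not tested.

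From 1 to 3 dpi, across scans, 7 of the 10 genes were at least 2-fold higher and 0 lower, against 7.73% and 5.13% of all genes. All 10 were higher by some amount, against 57.5% of all genes, and their median was 1.32 against 0.09. Fosb, Jun and Nr4a2 were the 3 within 2-fold. The 10 were likewise all higher under each of the 7 alternatives that measured all of them. The number past 2-fold was 6 with normexp or quantile normalization, which left out Npas4 at 0.66 and 0.79, and 5 with median centring. Over the same step 7 of 14 macrophage markers were at least 2-fold lower, with a median of -0.98, and of 12 fibroblast markers 3 were lower and 1 higher; their part in the result was not tested. The step also crosses scans, and by the protocol the first forskolin medium was due on day 3 after the second infection, which may be before or after the later cells were taken, so scan, medium and time cannot be told apart.

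**Figure D2:**
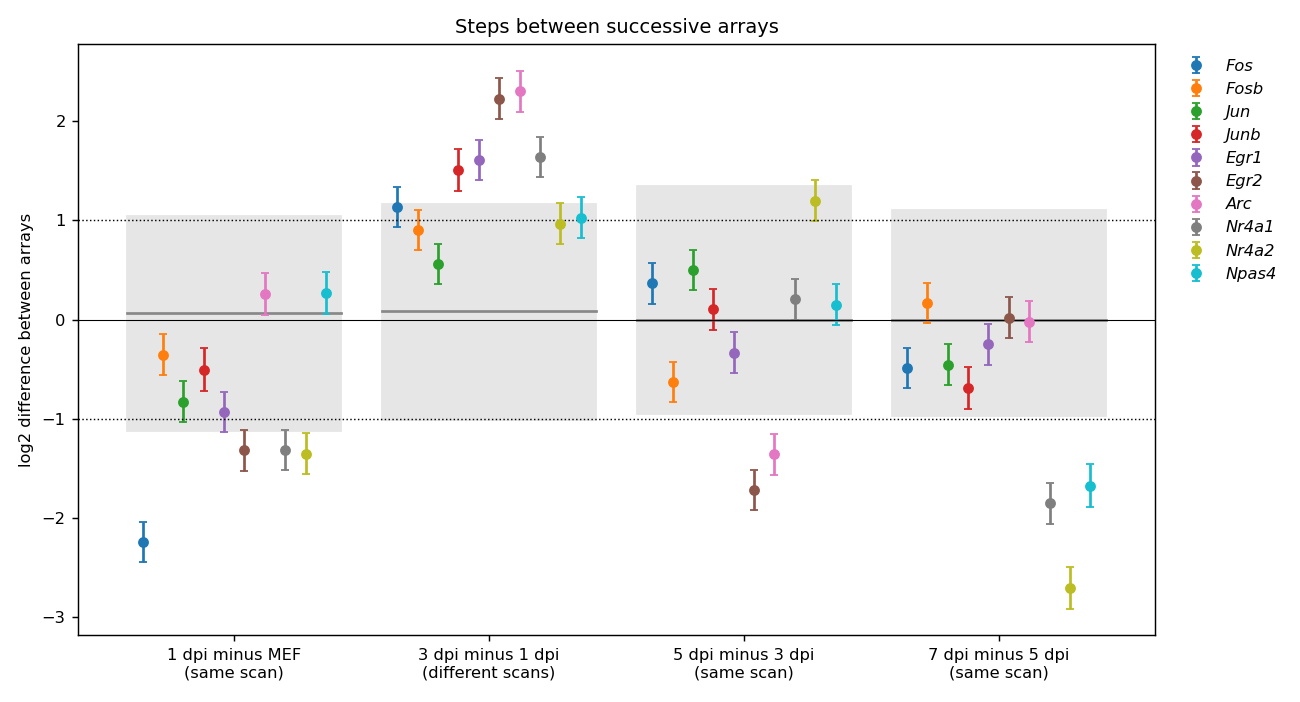
Log2 difference between successive arrays (vertical axis) for the 10 genes, with the scanner's error of the difference as bars; grey boxes span the 5th to 95th percentile of all genes, the line within is their median, and dotted lines mark 2-fold. All 10 genes are above 0 from 1 to 3 dpi, and Nr4a1, Nr4a2 and Npas4 lie below the grey box from 5 dpi to the array labelled 7 dpi.

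From 3 to 5 dpi, within a scan, the genes parted. Nr4a2 was at least 2-fold higher, 1 of 10 against 8.10% of all genes, and Egr2 and Arc were at least 2-fold lower, 2 of 10 against 4.54%. The other 7 were within 2-fold, from -0.63 for Fosb to 0.50 for Jun, and the median of the 10 was 0.13. Macrophage markers were lower in all 14 of 14 cases, with a median of -2.29.

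From 5 dpi to the array labelled 7 dpi, again within a scan, 3 of 10 genes were at least 2-fold lower (Nr4a1, Nr4a2 and Npas4), against 4.71% of all genes, and 0 were higher, against 5.88%. By any amount, 8 of 10 were lower, against 50.7%. Each of these 3 stayed past 2-fold under every alternative that measured it. Fosb and Egr2 were the genes not lower, at 0.17 and 0.02, and that of Egr2 had the opposite sign after quantile normalization or median centring. Of the macrophage markers 5 of 14 were at least 2-fold lower, with a median of -0.47, and of the neuron markers 7 of 15 were higher and 0 lower. In the same step the brightest Tet3 probe went from 6.94-fold to 1.23-fold of MEF. Another Tet3 probe was well above background at 5 dpi but not on the array labelled 7 dpi. By the protocol forskolin medium was due again on day 5, so Tet3 signal, medium and time cannot be told apart.

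Against MEF itself, 3 and 5 dpi stood nearer to the share over all genes than the step from 1 to 3 dpi did. The comparisons of the later arrays with MEF share the MEF array, and each also crosses scans. At 3 dpi, 3 of 10 were at least 2-fold higher (Junb, Arc and Npas4) and 1 lower (Fos), against 16.3% and 9.83% of all genes. At 5 dpi the same number was higher, 3 of 10 (Junb, Arc and Npas4), and 0 lower, against 17.9% and 8.25%. Only 1 of these 3 stayed past 2-fold with normexp or quantile normalization, at either time: Arc at 3 dpi and Npas4 at 5 dpi. On the array labelled 7 dpi, 1 of 10 was higher (Arc) and 3 were lower (Fos, Nr4a1 and Nr4a2), against 17.0% and 6.84%. The median of the 10 genes was 0.61, 0.44 and -0.23 at these times, and the median over all genes was 0.20, 0.20 and 0.16. Of the 14 macrophage markers 12, 13 and 13 were at least 2-fold lower. At 3 dpi, 3 of 12 fibroblast markers were lower and 2 higher, among them the matrix proteoglycans Dcn at -2.71 and Lum at -2.19 and the calcium-binding protein S100a4 at 3.66. The part of these markers in the result was not tested.

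In primary neurons 5 of the 10 genes (Fos, Fosb, Egr2, Arc and Npas4) were at least 2-fold above MEF, against 30.2% of all genes, and 0 were lower, against 16.1%. By any amount 9 of 10 were higher, where 57.5% of all genes were, and the median of the 10 was 1.05 against 0.26. Quantile normalization left 8 of 10 higher by any amount and median centring 6 of 10. After median centring 3 were at least 2-fold higher and Nr4a1 was lower, at -1.74. Of the markers, 14 of 15 for neurons and all 9 for astrocytes and radial glia were at least 2-fold higher, and 10 of 12 for fibroblasts and 13 of 14 for macrophages were lower. Set against neurons, the array labelled 7 dpi had 6 of 10 genes at least 2-fold lower (Fos, Fosb, Egr2, Arc, Nr4a2 and Npas4), against 19.6% of all genes, and 0 higher, against 13.9%. By any amount 9 of 10 were lower, against 52.6%. Of the neuron markers 12 of 15 were lower too, as were all 9 markers of astrocytes and radial glia, with medians of -1.89 and -4.48, while 10 of 12 fibroblast markers were higher, with a median of 4.87. Fewer neurons in the culture and lower levels in each neuron cannot be told apart, and the part of these cell types was not tested.

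**Figure D3:**
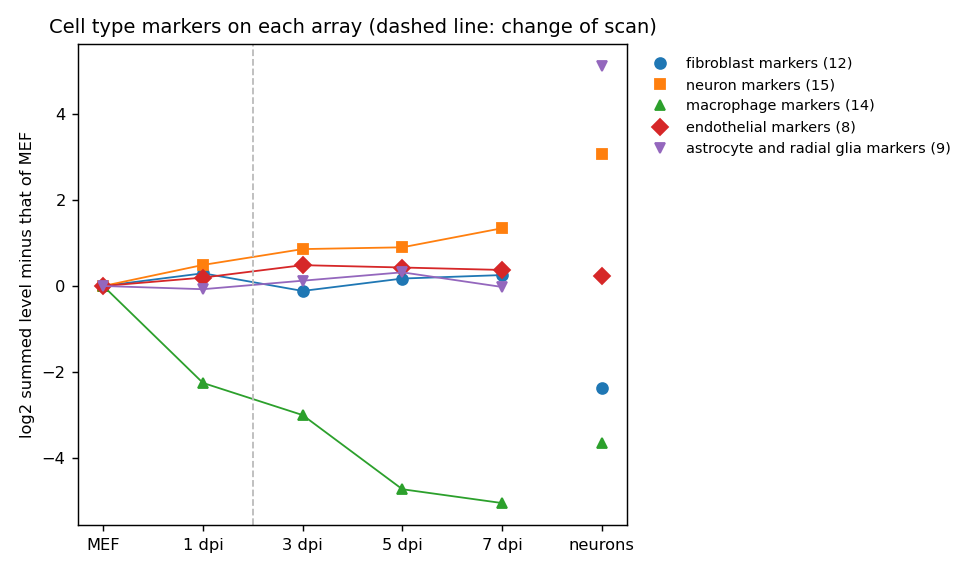
Summed level of each list of cell type markers on each array, as a log2 difference from MEF (number of markers in brackets). The macrophage sum is lower at every Tet3 array than at the one before, from 0 in MEF to -5.06 on the array labelled 7 dpi, while the fibroblast sum stays within 0.30 of MEF on the Tet3 arrays, although single fibroblast markers went both ways at 3 dpi.

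Likeness was measured as the root mean square distance between the 5 log2 differences from MEF, over 14935 other genes well above background on all 6 arrays. The points share the MEF array and the scans, so a small distance describes these 6 arrays only. Npas4 lay nearest to Noct, the gene of the clock-linked protein nocturnin, at a distance of 0.26. For Egr1 the nearest was Gper1, a membrane estrogen receptor (0.24), and for Junb it was the mitotic kinesin Kif11 (0.21). Of the distances from each gene to its nearest, the smallest were those of Jun to Olfr509 (0.13) and of Fosb to Pank1 (0.17). Nr4a1 had no gene as near: Smim3, Ier3 and Abcc1 stood at 0.49, 0.49 and 0.50. Arc was nearest to Plekhg4 (0.42), Egr2 to the cadherin Cdh13 (0.38) and Nr4a2 to the sphingosine phosphate receptor S1pr1 (0.51). Fos had its nearest genes at 0.52 to 0.57, led by Kif3a. Among the 10 genes, Fosb and Egr1 were each other's nearest member, at 0.36. So were Nr4a1 and Nr4a2, at 0.72, and Arc and Npas4, at 0.85. Other genes lay nearer in each case: 280 to Fosb, 26 to Egr1, 116 to Nr4a1, 11 to Nr4a2, 461 to Arc and 540 to Npas4. Fos and Arc were the farthest pair, at 2.47.

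The remaining genes of the pathway were taken from 9 lists, whose counts are over MEF and stand beside the shares over all genes: 16.3% higher and 9.83% lower at 3 dpi, 17.9% and 8.25% at 5 dpi, and 17.0% and 6.84% on the array labelled 7 dpi. Among 12 other AP-1 and related leucine zipper genes, 1 was at least 2-fold higher and 3 lower at 3 dpi, 1 and 4 at 5 dpi, and 0 and 4 on the array labelled 7 dpi, so the share of higher genes was below that over all genes each time. Fosl1, a Fos relative typical of growing and migrating cells, was the higher one, at 1.55, 4.05, 3.41 and 0.83 over MEF on the arrays labelled 1, 3, 5 and 7 dpi and 3.02 in neurons. Batf, made by leukocytes, was lower, at -2.79 at 5 dpi, beside the macrophage markers. Atf3, a stress-induced factor, was at -0.51, -1.62 and -2.71 on the arrays labelled 3, 5 and 7 dpi.

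Of 19 other rapid response transcription factors measured over MEF, 7 were at least 2-fold higher at 3 dpi and 1 lower, 4 and 1 at 5 dpi, and 3 and 1 on the array labelled 7 dpi. At the last 2 of these times the share of higher genes was near that over all genes. Egr4 differed by 2.24, 1.11 and 2.67 on the arrays labelled 3, 5 and 7 dpi, and by 5.37 in neurons. Egr3 was not well above background in MEF, and was at least 1.77, 1.48 and 1.11 higher on the arrays labelled 3, 5 and 7 dpi. Myc, the growth factor-induced regulator, was 1.82 higher at 3 dpi and -0.07 from MEF on the array labelled 7 dpi.

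Among 29 feedback inhibitors, which switch off the kinases and transcripts of this response, 7 were higher and 2 lower at 3 dpi, 11 and 2 at 5 dpi, and 3 and 5 on the array labelled 7 dpi. The share of lower genes at 3 and 5 dpi, and of higher genes on the array labelled 7 dpi, was below that over all genes. From 5 dpi to that array 8 of 29 were at least 2-fold lower and 0 higher, against 4.71% and 5.88% of all genes. Dusp5 and Dusp4, phosphatases that act on MAP kinases, were 2.17 and 2.06 higher at 3 dpi, and Dusp2 was 2.28 higher at 5 dpi. Rgs1, a leukocyte regulator of G protein signalling, was at -2.22 at 5 dpi and at least 3.86 lower on the array labelled 7 dpi.

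The list of activity-regulated synaptic and secreted genes had 14 of 21 measured genes higher and 1 lower at 3 dpi, 14 of 22 and 1 at 5 dpi, and 11 of 23 and 0 on the array labelled 7 dpi. Its medians were 1.87, 2.01 and 0.92. Ptgs2, the inducible prostaglandin synthase, was 4.80 and 4.70 above MEF at 3 and 5 dpi and 0.31 on the array labelled 7 dpi. Vgf, a secreted neuropeptide precursor, had the opposite order, at 2.83, 3.02 and 6.39. Nefl, which is also among the neuron markers, was at 1.43, 5.12 and 5.58. The part of neuron markers in these counts was not tested.

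Of 20 CREB target peptides and enzymes, 8 of 16 measured genes were higher at 3 dpi, 10 of 16 at 5 dpi and 9 of 16 on the array labelled 7 dpi, and 0 were lower at each time. Several of these counts rest on genes not above background in MEF, 5 at each time. Vip, a peptide with a well-studied cyclic AMP response element, was at least 3.62, 5.24 and 2.33 higher on the arrays labelled 3, 5 and 7 dpi. Pomc, the precursor of ACTH, was 0.81, 1.38 and 7.05 higher, and the granule protein Chga 1.70, 2.24 and 5.89 higher. Neuron markers were higher on the same arrays, 8 of 14 at 3 dpi, 9 of 15 at 5 dpi and 12 of 15 on the array labelled 7 dpi, and their part in these counts was not tested.

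Genes upstream of the response make, sense and pass on the signal. Among 12 CREB family and coactivator genes 0 were higher on any of the arrays labelled 3, 5 and 7 dpi, and 3, 1 and 1 were lower, with Creb5 at -2.11 and the coactivators Crtc3 and Crtc1 at -1.22 and -1.13 at 3 dpi. Of the genes for cyclic AMP synthesis, breakdown and protein kinase A, 2 were higher and 9 lower at 3 dpi (of 32), 3 and 3 at 5 dpi (of 33), and 7 and 1 on the array labelled 7 dpi (of 34). The adenylyl cyclase Adcy7 was at -3.45 at 5 dpi, and Adcy8, a cyclase of neurons, was at least 3.18 higher on the array labelled 7 dpi. Among 26 genes of the SRF and MAP kinase arm, 2 were higher and 2 lower at 3 dpi, 3 and 2 at 5 dpi, and 2 and 1 on the array labelled 7 dpi.

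Cytoskeletal targets of SRF and its partner MRTF followed another course than Fos. Of 19 genes, 8 were at least 2-fold higher at 1 dpi (5.38% of all genes were), when Fos and Egr2 were lower, 12 at 3 dpi, 8 at 5 dpi and 1 on the array labelled 7 dpi, and 0 were lower at these times. Ankrd1, a stretch-responsive nuclear protein, was 3.29, 4.60, 7.30 and 4.29 above MEF on the arrays labelled 1, 3, 5 and 7 dpi. The smooth muscle actin Actg2 was 3.18, 4.13, 4.13 and 0.65 above it. From 5 dpi to the array labelled 7 dpi, 9 of 19 were at least 2-fold lower and 0 higher.

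**Figure D4:**
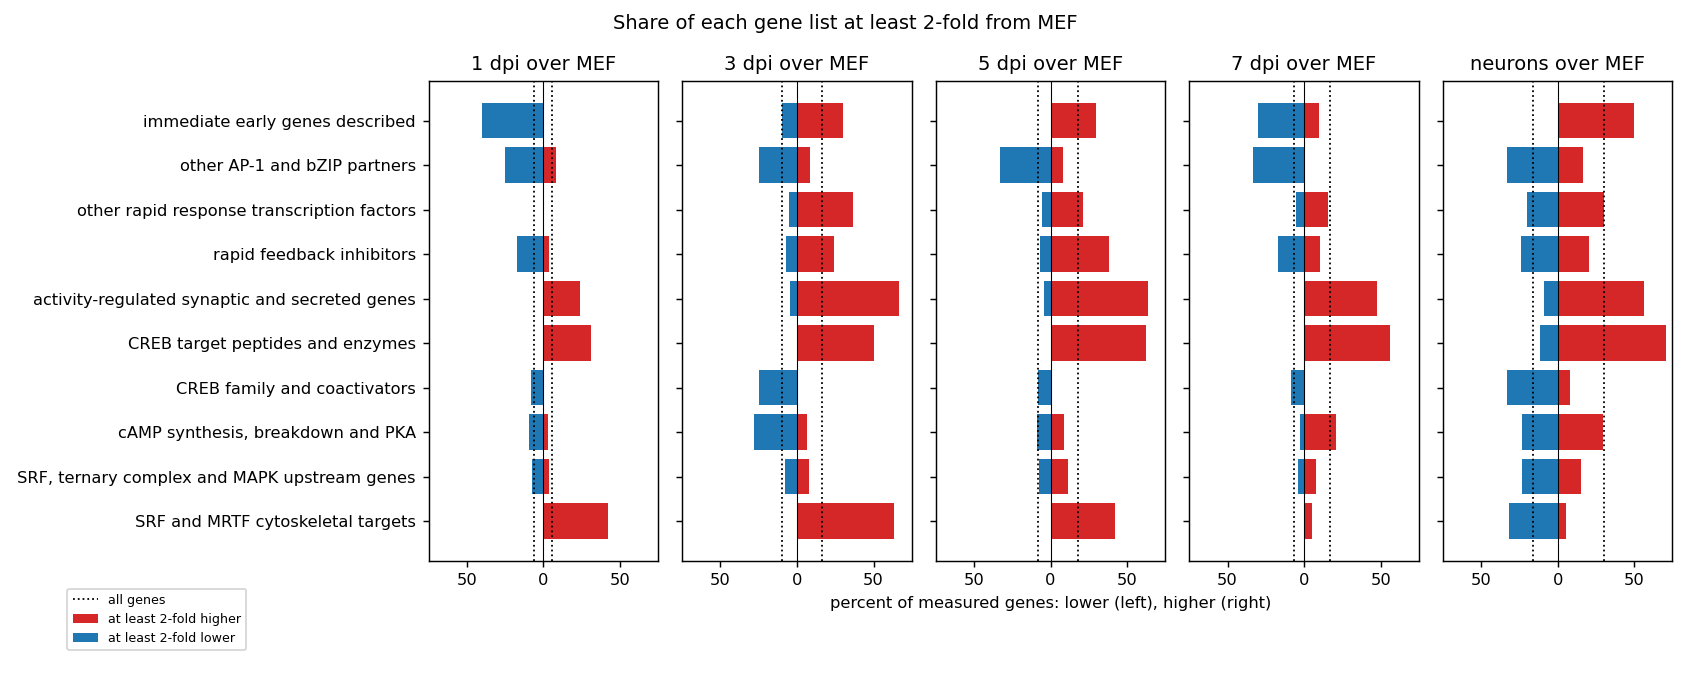
Share of the measured genes of each list that were at least 2-fold higher (red, to the right) or lower (blue, to the left) than in MEF, in percent, with dotted lines at the shares over all genes. At 1 dpi the immediate early genes (4 of 10) extend to the left and the SRF and MRTF targets (8 of 19) to the right; at 3 dpi both extend to the right.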

How the data were processed

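Per the submitters' processing notes, the scans were quantified in Agilent Feature Extraction (version 11.0.1.1). The deposited intensity values are background-corrected, per the file headers, and those of the neuron array carry fewer digits. The authors' deposited table holds log2 values near these with the 75th percentile at 0; its scaling is not described in the labels. Spots without outlier flags were averaged per probe as log2 signal minus the array's 75th percentile. A gene is its brightest probe, named through RefSeq accessions. A difference is measured where both arrays are well above background and a lower bound ("at least", against the lowest signal well above background) where only 1 is. With 1 array per group no test was made; genes past 2-fold were counted, and the counting was tested on simulated data. The genes described and the lists were chosen with earlier results of these data known. From each list up to 4 genes furthest from MEF at 3, 5 or 7 dpi could be named; some of these are not reported here. Alternatives were normexp on median signals (limma 3.58.1, offset 50; mean signals were not used), quantile normalization, median centring, the authors' table, filters on dim genes, the mean over probes and a 4-fold threshold.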

Additional observations from a re-analysis of the deposited data

How the results depend on the processing

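The authors' table, requiring both arrays well above background, no filter and the mean over probes kept the side of 2-fold of all 90 values of the 10 genes. Normexp moved 6, quantile normalization 10 and median centring 15 of 90 across it, none to the opposite call. Counts of the 10 genes past 2-fold in either direction that moved by more than 1.5 times are as follows. Here 7 dpi stands for the array so labelled. Normexp gave 2 for 3 dpi and 1 for 5 dpi over MEF. Quantile normalization likewise gave 2 and 1, and median centring gave 2 for 3 dpi. Such a count does not show a change of direction. For 5 dpi over MEF median centring gave 1 higher and 2 lower, against 3 and 0. Only 4 of the 10 genes were bright enough for the filter at a log2 level of -1; it left 2 for 1 dpi, 1 for 3 dpi, 0 for 5 dpi, 2 for the array labelled 7 dpi and 1 for neurons, each over MEF, and 3 for 3 over 1 dpi, 0 for 5 over 3 dpi, 1 for 7 over 5 dpi and 1 for 7 dpi over neurons, since fewer genes were tested. At 4-fold the counts were 1, 1, 0, 0 and 2 for 1, 3, 5, 7 dpi and neurons over MEF, 2 for 3 over 1 dpi, 0 for 5 over 3 dpi and 1 for 7 over 5 dpi. The median of the 10 genes moved by more than the array error in 13 cases. With median centring it was 0.32, 0.034, -0.67 and 0.25 for 3, 5, 7 dpi and neurons over MEF, 1.095 for 3 over 1 dpi and -1.14 for 7 dpi over neurons. Normexp gave 1.096 for 3 over 1 dpi, and quantile normalization -0.47 for 7 dpi over MEF. Among bright genes it was -1.12, 0.029, -0.72 and 0.67 for 1, 3, 7 dpi and neurons over MEF and -0.73 for 7 dpi over neurons. The cause of these moves was not tested, except that the filter tests fewer genes. Of the medians of the other lists over MEF under alternatives, 139 moved by more than the array error and 420 did not, and the median of CREB targets in neurons over MEF reversed among bright genes, at -0.96 against 1.99. No replicate could be left out, and no paired analysis was possible because each group has 1 array.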
